A study of Mus musculus with 132 samples.

Results

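KIT and the PDGF receptors are receptor tyrosine kinases of the same class, and the 8 genes described here encode 4 receptors (Kit, Flt3, Pdgfra and Pdgfrb) and 4 ligands (Kitl, which encodes stem cell factor, and Pdgfa, Pdgfb and Pdgfc). They were chosen by symbol and not by a filter on their values, though with earlier results of these data known. They make 8 of the 25146 genes of the count table. Poly(A)-minus RNA-seq, which captures newly made transcripts, gave 23 libraries of mouse E14-TG2a embryonic stem cells (mESCs, a 129/Ola line) undergoing differentiation to blood. Wild-type cells were sampled undifferentiated at day 0 (2 technical replicates of 1 culture), as Flk1+ mesoderm at day 4 (3 clones) and as CD41+ hematopoietic progenitor cells (HPCs) at day 7 (4 libraries of 3 clones). Cells in which CRISPR/Cas9 had removed the CTCF site near the P1 promoter (P1-CTCF-KO) or the P2 promoter (P2-CTCF-KO) of Runx1 were sampled at the later stages only, with 3 mesoderm and 3 HPC libraries of 3 P1-CTCF-KO clones, and with 3 mesoderm and 5 HPC libraries of 3 P2-CTCF-KO clones. The deleted sites lie on another chromosome than every gene described here, and the counts hold no direct check of the deletions. The cultures received BMP4, bFGF and Activin A before the Flk1 sort, and VEGF and stem cell factor after it, so the ligand of KIT was supplied from outside at the HPC stage.

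A ligand of this group pairs its receptors on the cell surface. The receptors then phosphorylate each other and recruit adaptors such as GRB2 and GAB2, which lead to the RAS, PI3-kinase, phospholipase C and STAT5 pathways, while phosphatases, CBL ubiquitin ligases and Sprouty proteins restrain the signal. KIT marks hemogenic endothelium and early blood progenitors, FLT3 marks later lymphoid and myeloid progenitors, PDGFRA marks early mesoderm before and beside the Flk1+ fraction, and PDGFRB marks mesenchyme and the mural cells of vessels. PDGF-B is known from megakaryocytes and endothelium, PDGF-A and PDGF-C from epithelia and early embryonic tissues.

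Pdgfra, Kit and Kdr, which encodes Flk1, are neighbouring genes. In the mm9 build Pdgfra spans chr5:75548275-75594231 and Kit chr5:75971011-76052746 on the plus strand, and Kdr spans chr5:76328851-76374480 on the minus strand. Flt3 (chr5:148142316-148212065) and Pdgfa (chr5:139451967-139470898) lie on the minus strand of the same chromosome. Kitl spans chr10:99478454-99563049 and Pdgfc chr3:80840337-81017962 on the plus strand, and Pdgfb chr15:79826294-79845407 on the minus strand. The deposited counts place the start of Kit at 75971011, and the GENCODE vM1 annotation used for the windows and peaks below places its first start at 75970941. The sequences below are the region before the Kit start, the mesoderm ATAC-seq peaks at Kit that touch no exon and a mesoderm peak upstream of Pdgfra, since these are the receptor genes at which P2-CTCF-KO mesoderm stood farthest from P1-CTCF-KO mesoderm in CPM. They are 5′ to 3′ on the mm9 plus strand, read from the reference genome, and capitals mark motif letters found on either strand. The letters searched for GATA factors were AGATAA. For RUNX factors such as RUNX1 the search used TGTGGT. For ETS factors the letters were CCGGAA. The site of KLF and SP factors was written as GGGCGG. The core of the CTCF motif was taken to be AGGNGGC.
Kit, 250 bases before the start (chr5:75970691-75970940): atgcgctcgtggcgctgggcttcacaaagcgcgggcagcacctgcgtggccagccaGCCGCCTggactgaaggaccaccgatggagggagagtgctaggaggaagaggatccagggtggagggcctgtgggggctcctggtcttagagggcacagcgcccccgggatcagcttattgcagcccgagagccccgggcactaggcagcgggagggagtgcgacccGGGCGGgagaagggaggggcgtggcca
Kit, mesoderm peak and CTCF peak in the first intron (chr5:75971825-75971974): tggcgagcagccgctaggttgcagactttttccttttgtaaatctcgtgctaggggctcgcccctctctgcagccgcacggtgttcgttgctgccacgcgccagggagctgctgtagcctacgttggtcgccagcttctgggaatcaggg
Kit, mesoderm peak (chr5:75986129-75986278): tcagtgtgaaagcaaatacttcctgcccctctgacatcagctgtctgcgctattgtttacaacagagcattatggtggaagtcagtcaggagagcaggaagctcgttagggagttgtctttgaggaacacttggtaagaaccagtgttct
Kit, mesoderm peak (chr5:76004013-76004162): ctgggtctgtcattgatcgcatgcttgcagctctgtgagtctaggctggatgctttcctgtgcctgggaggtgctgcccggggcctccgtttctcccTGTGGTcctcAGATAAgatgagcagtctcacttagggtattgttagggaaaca
Pdgfra, mesoderm peak upstream (chr5:75545968-75546117): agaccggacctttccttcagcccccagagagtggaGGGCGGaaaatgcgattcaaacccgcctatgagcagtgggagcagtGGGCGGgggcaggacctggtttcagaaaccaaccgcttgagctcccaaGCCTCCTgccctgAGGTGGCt
The printed window at the Kit peak 33146 bases into the gene held a RUNX and a GATA match that did not overlap. They stood at positions 98 to 103 and 108 to 113 of the window. The called peak itself spans chr5:76004056-76004119, so the RUNX letters lie in it and the GATA letters just past its end. Over 76760 mesoderm peaks read in windows of 150 bases, 13.3% held the GATA letters, 11.5% the RUNX letters and 1.71% both. The Kit start held a GGGCGG match and a CTCF core match, letters found in 41.1% and 28.6% of the 45968 windows of 250 bases before start sites. The Pdgfra window held the GGGCGG letters and the CTCF core letters, which 16.8% and 20.8% of mesoderm peaks held, and the other printed Kit windows held none of the motifs.

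Libraries held 20532600 to 24283300 counts in undifferentiated cells, 18233700 to 24407000 in mesoderm and 7805100 to 13513700 in HPCs. Genes with several loci or ribosomal RNA took 68.1% to 76.3% of them in undifferentiated cells and 87.8% to 91.0% later, which left 878966 to 1584400 counts on single loci in an HPC library. Levels below are counts scaled to a common library size by TMM over the 23 libraries (CPM), and 3 counts, the most that an observed count of 0 allows, were worth 0.0164 to 0.0294 CPM in undifferentiated cells and 0.209 to 0.608 CPM in HPCs. Marker genes of the undifferentiated and HPC stages followed the labels. The summed level of 6 pluripotency genes was 37.7 and 40.6 CPM in undifferentiated cells and at most 4.06 CPM later, 8 mesoderm genes summed to 24.0 to 91.0 CPM in mesoderm, which overlapped the 15.7 to 32.7 CPM of HPCs, and 6 hematopoietic progenitor genes, Itga2b (CD41) and Runx1 among them, summed to 68.6 to 244 CPM in HPCs. Some libraries stood apart within their group. The first HPC library of wild-type clone B9.3 held 98.1 CPM of 8 mesenchyme and smooth muscle genes, against 1.79 to 3.95 CPM in the other wild-type HPC libraries, and the first HPC library of P2-CTCF-KO clone D2.1 held 72.6 CPM of 8 endothelial genes, against 11.5 to 29.6 CPM in the other 11 HPC libraries. In bulk RNA, fewer cells of a type and less RNA per cell cannot be told apart.

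**Figure D1:**
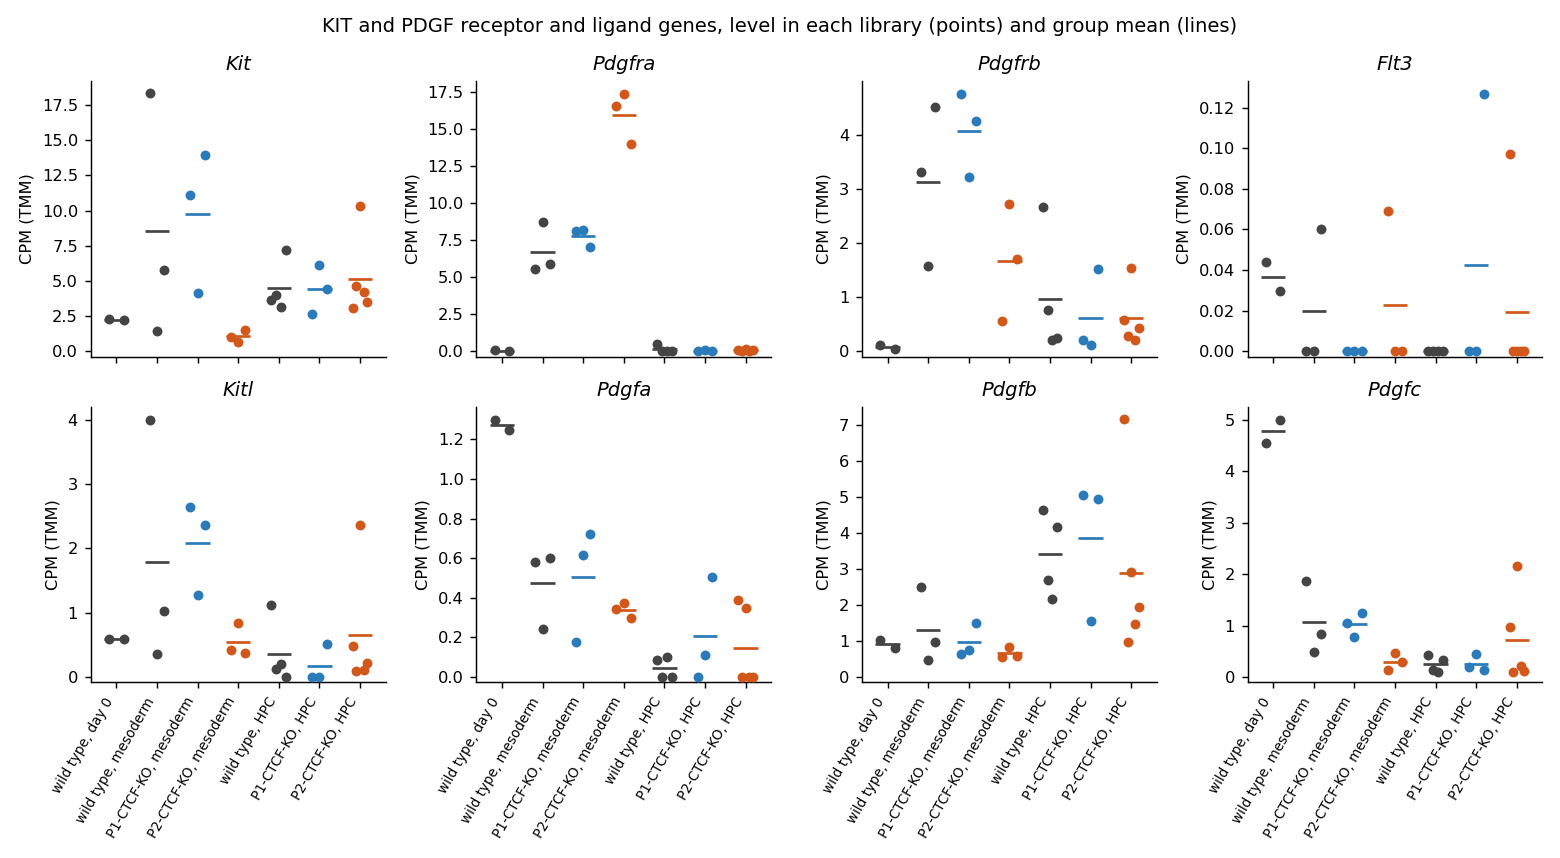
Level of each of the 8 genes (CPM of the TMM-scaled library size, linear axes from 0) in the 23 libraries. Points are libraries, short lines are group means, and colour gives the genotype (black wild type, blue P1-CTCF-KO, orange P2-CTCF-KO). Pdgfra was near 0 outside mesoderm and highest in the 3 P2-CTCF-KO mesoderm libraries, where Kit was low.

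Levels of different receptors were compared per length in wild-type cells. In mesoderm the level per kilobase of counted span, which allows genes to be compared, was 0.146 CPM per kb for Pdgfra, 0.104 for Kit, 0.0784 for Pdgfrb and 0.000287 for Flt3, beside 0.596 for Kdr. Kit ran from 0.0178 to 0.224 CPM per kb over the 3 clones, so that its place beside Pdgfra and Pdgfrb was not settled. Pdgfra, at 0.120 to 0.190, lay above Pdgfrb, at 0.0396 to 0.113, in each of the 3 clones. The difference between genes was not tested. In HPCs Kit had the highest mean of the receptors at 0.0547 CPM per kb, above Pdgfrb at 0.0243. The first library of clone B9.3 had the other order, with Pdgfrb at 0.0667 and Kit at 0.0441 CPM per kb. The ligand Pdgfb had a higher mean than either receptor, at 0.179 CPM per kb.

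Kit, the receptor for stem cell factor, was present at every stage. The undifferentiated libraries held 2.28 and 2.21 CPM. Wild-type mesoderm held 18.3 CPM in clone B9.3, 5.76 CPM in clone C8.1 and 1.46 CPM in clone C6.1, so that the clones lay on both sides of the undifferentiated level. Wild-type HPCs were closer together, at 3.61, 3.97, 3.16 and 7.16 CPM. None of the wild-type steps passed the test for Kit, with a log2 fold change of 1.95 (SE 0.70, edgeR quasi-likelihood test, adjusted p = 0.0587) into mesoderm and -0.96 (SE 0.58, adjusted p = 0.252) from mesoderm to HPCs. Both rested on clones. Without clone C6.1 in mesoderm the first step reached an adjusted p of 0.00752 and the second -1.42 with an adjusted p of 0.0362, and without clone B9.3 in mesoderm the steps were 0.79 (adjusted p = 0.267) and 0.23. The first step was also called without the filter on low counts (adjusted p = 0.00196) and in 1 fit of all 23 libraries (adjusted p = 0.0412).

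Flt3, the receptor of lymphoid and myeloid progenitors, was barely detected. It held 8 and 3 counts in the undifferentiated libraries, worth 0.0437 and 0.0294 CPM, and at most 1 count in any of the other 21 libraries. It passed the filter in no fit and was not tested.

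Pdgfra, a receptor for PDGF-A and PDGF-C, was near 0 outside mesoderm. Undifferentiated libraries held 0.0764 and 0.00981 CPM. The wild-type mesoderm libraries held 5.51, 8.74 and 5.88 CPM, above both undifferentiated libraries. Wild-type HPCs held 6 counts in all, each of them in the first library of clone B9.3 (0.515 CPM), and 0 counts in the other 3 libraries. Pdgfra rose into mesoderm by 6.98 on the log2 scale (SE 0.80, edgeR, adjusted p = 2.03e-04) and fell by 5.51 from mesoderm to HPCs (SE 0.73, adjusted p = 2.38e-04). Without that B9.3 library, which left 0 HPC counts, the fitted value was -11.22 and is no bound. The B9.3 library that held its HPC counts was the one with 98.1 CPM of mesenchyme and smooth muscle genes. The part of those cells in the result was not tested.

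Pdgfrb (chromosome 18), the receptor for PDGF-B, also rose into mesoderm and stayed above the undifferentiated level in HPCs. It was 0.109 and 0.049 CPM in undifferentiated cells, and 3.31, 1.58 and 4.50 CPM in wild-type mesoderm. Wild-type HPCs held 2.66 CPM in the first library of clone B9.3 and 0.768, 0.197 and 0.250 CPM in the others. The log2 fold change was 5.21 into mesoderm (SE 0.87, edgeR, adjusted p = 0.00146) and 3.52 from undifferentiated cells to HPCs (SE 0.87, adjusted p = 0.00642). The second of these was 2.15 without the first B9.3 HPC library, and was no longer called without the second undifferentiated library (adjusted p = 0.0663). The step from mesoderm to HPCs did not pass, at -1.70 (SE 0.66, adjusted p = 0.077). It passed without the first B9.3 HPC library, at -3.09 with an adjusted p of 0.00135, and with the clone as a block, at -2.26 with an adjusted p of 0.0457.

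Among the ligands, Pdgfa and Pdgfc were lower at each later stage in wild-type cells. Pdgfc, which signals through PDGFRA, was 4.55 and 5.003 CPM in undifferentiated cells. It was 1.86, 0.486 and 0.840 CPM in wild-type mesoderm and 0.429, 0.128, 0.0986 and 0.333 CPM in wild-type HPCs, so that no 2 stages overlapped. Pdgfc fell by 2.08 into mesoderm (log2, SE 0.43, edgeR, adjusted p = 0.00458) and changed by -2.097 from mesoderm to HPCs (SE 0.55, adjusted p = 0.0141). The second call was lost without the mesoderm library of clone B9.3, at -1.42 with an adjusted p of 0.0735. Pdgfa, the other ligand of PDGFRA, was 1.30 and 1.25 CPM in undifferentiated cells, 0.580, 0.243 and 0.600 CPM in wild-type mesoderm and 0.0859, 0, 0.0986 and 0 CPM in wild-type HPCs. Its fall of 1.33 into mesoderm (SE 0.43, adjusted p = 0.0408) passed narrowly and was lost when any of the 3 mesoderm libraries or either undifferentiated library was left out, at adjusted p up to 0.22. Only 2 counts remained in wild-type HPCs, a ratio of counts per library size to mesoderm of 0.0921 (95% counting interval 0.0105 to 0.375, edgeR adjusted p = 0.00655). With the clone as a block, neither Pdgfa nor Pdgfc passed the filter of the 7 wild-type libraries.

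Kitl, the ligand of KIT, had no called step in wild-type cells with all libraries and the filter on low counts. It was 0.584 and 0.598 CPM in undifferentiated cells, 4.00, 0.364 and 1.02 CPM in wild-type mesoderm and 1.12, 0.128, 0.197 and 0 CPM in wild-type HPCs. The log2 fold change was 1.68 into mesoderm (SE 0.82, edgeR, adjusted p = 0.149) and -2.33 from mesoderm to HPCs (SE 0.88, adjusted p = 0.0698). Both depended on single libraries and on the filter. Without mesoderm clone B9.3 the first was 0.39. The second was called without the first B9.3 HPC library (-4.20, adjusted p = 0.00858) and without mesoderm clone C6.1 (adjusted p = 0.0364). Without the filter on low counts both were called, at adjusted p of 0.033 and 0.00211. The clone with the most Kit in mesoderm, B9.3, also held the most Kitl.

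Pdgfb, the ligand of PDGFRB, went the other way from Pdgfa and Pdgfc. It was 1.03 and 0.795 CPM in undifferentiated cells and 2.49, 0.486 and 0.960 CPM in wild-type mesoderm. All 4 wild-type HPC libraries, at 4.64, 2.69, 2.17 and 4.16 CPM, lay above the undifferentiated ones on the TMM scale. The rise from undifferentiated cells to HPCs was 1.91 (log2, SE 0.48, edgeR, adjusted p = 0.00703) and was no longer called without either undifferentiated library (adjusted p = 0.0501 and 0.0861), and the step from mesoderm to HPCs missed the threshold at 1.30 (SE 0.45, adjusted p = 0.0526). Without the mesoderm library of clone B9.3 that step was 2.14 with an adjusted p of 0.00329.

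Across the wild-type series, 7 of the 8 genes passed the filter on low counts, and 4 were called into mesoderm (Pdgfra and Pdgfrb higher, Pdgfa and Pdgfc lower), where 24.4% of the 12899 genes tested were called, 10.7% higher and 13.7% lower. From mesoderm to HPCs 3 were called, all lower (Pdgfra, Pdgfa and Pdgfc), against 23.3% of genes, or 12.5% lower. From undifferentiated cells to HPCs 4 were called (Pdgfrb and Pdgfb higher, Pdgfa and Pdgfc lower) against 41.9% of genes, 17% higher and 25% lower. The median log2 fold change over the 7 genes was 1.68 into mesoderm and -2.097 from mesoderm to HPCs, beside -0.18 and -0.01 over all genes tested. Any rise or fall from undifferentiated cells is also a comparison between library preparations. Among these cells a kit for depletion of ribosomal RNA is described for the undifferentiated ones alone, and the stage and the preparation cannot be told apart.

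**Figure D2:**
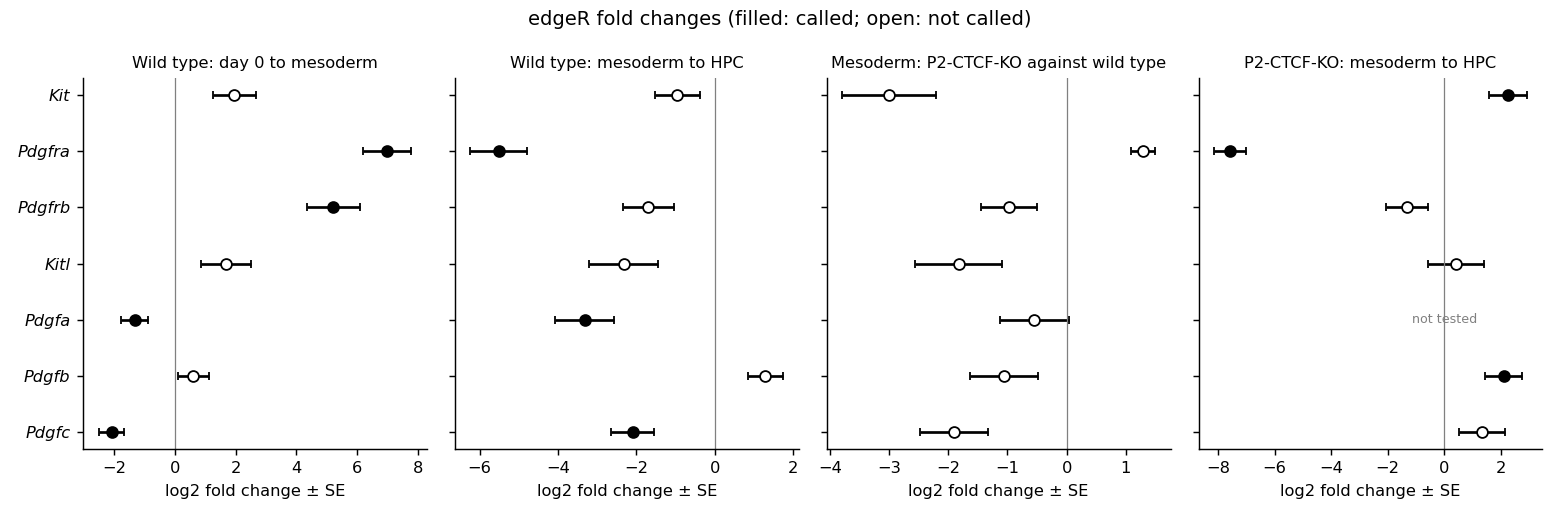
edgeR log2 fold change with its standard error (bars) of the 7 genes tested, in 4 comparisons. Filled points were called (adjusted p under 0.05 and a change over 1), and open points were not. Pdgfra was called in each of the 3 steps shown, Kit in the P2-CTCF-KO step alone, and no gene in the comparison of P2-CTCF-KO with wild-type mesoderm.

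The comparison between genotypes asks whether loss of a CTCF site at Runx1 altered these genes at either stage. No gene of the 8 was called in any of the 6 comparisons, and few genes were called at all. In P2-CTCF-KO against wild-type mesoderm 0.0342% of the 8778 genes tested were called (3 genes, and 1408 at an unadjusted p under 0.05), and in P2-CTCF-KO against P1-CTCF-KO mesoderm 0% were called by edgeR (987 at an unadjusted p under 0.05). P1-CTCF-KO against wild-type mesoderm gave 0% (168 unadjusted).

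The P2-CTCF-KO mesoderm libraries nevertheless stood at one end of the range for several of these genes. Their Kit level was 1.03, 0.657 and 1.48 CPM, from 15, 7 and 20 counts. P1-CTCF-KO mesoderm held 11.1, 4.16 and 13.96 CPM of Kit, above all 3, and wild-type mesoderm 18.3, 1.46 and 5.76 CPM, of which clone C6.1 lay within the P2-CTCF-KO range. The log2 fold change of Kit was -2.99 against wild type (SE 0.80, edgeR, unadjusted p = 0.00323, adjusted p = 0.146) and -3.14 against P1-CTCF-KO (SE 0.79, adjusted p = 0.236).

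Pdgfra stood at the other end. P2-CTCF-KO mesoderm held 16.5, 17.4 and 13.99 CPM, from 240, 185 and 189 counts. This was above the 5.51 to 8.74 CPM of the 3 wild-type libraries and the 7.01 to 8.19 CPM of the 3 P1-CTCF-KO libraries. The log2 fold change was 1.29 against wild type (SE 0.20, edgeR, unadjusted p = 5.4e-05, adjusted p = 0.0701) and 1.06 against P1-CTCF-KO (SE 0.20, adjusted p = 0.191). Groups that did not overlap were common: 19.3% of genes tested separated P2-CTCF-KO from wild-type mesoderm, 8.23% with P2-CTCF-KO higher, as for Pdgfra, and 11.1% with it lower. From P1-CTCF-KO mesoderm 18.1% separated, 7.56% higher and 10.5% lower.

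Whether Kit and Pdgfra were called depended on the test. With DESeq2, Kit had an adjusted p of 0.0422 and Pdgfra of 5.03e-05 against wild type, and 168 genes were called in place of 3. Without the filter on low counts both were also called, with 431 genes in all. Leaving out wild-type clone C6.1 gave adjusted p of 0.0326 for Kit and 0.0176 for Pdgfra. Over the 9 fits that left out 1 library, the adjusted p ran from 0.0326 to 0.356 for Kit and from 0.0176 to 0.337 for Pdgfra, while the log2 fold change stayed between -3.45 and -1.82 for Kit and between 1.17 and 1.52 for Pdgfra.

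Kdr, which lies beside Kit and encodes the protein used for the sort, showed no such difference. Its level was 24.2, 26.1 and 29.8 CPM in P2-CTCF-KO mesoderm and 16.9, 26.8 and 37.8 CPM in wild-type mesoderm, with an adjusted p of 0.999. The other genes of the group were on the low side in P2-CTCF-KO mesoderm without passing the test. Pdgfc was 0.138, 0.469 and 0.296 CPM there, below every wild-type and P1-CTCF-KO mesoderm library (log2 fold change -1.90 against wild type, SE 0.57, adjusted p = 0.169). Kitl was 0.413, 0.844 and 0.370 CPM, against 2.64, 1.28 and 2.36 CPM in P1-CTCF-KO and 4.00, 0.364 and 1.02 CPM in wild type (log2 fold change -1.83, SE 0.73, adjusted p = 0.259). Pdgfrb was 0.551, 2.72 and 1.70 CPM, below the 4.76, 3.21 and 4.26 CPM of P1-CTCF-KO and overlapping wild type. Pdgfa and Pdgfb overlapped both other genotypes, with log2 fold changes of -0.55 and -1.06 against wild type. The median over the 7 genes tested was -1.06, beside 0.01 over all genes.

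P1-CTCF-KO mesoderm overlapped wild type in Kit and Pdgfra. The log2 fold changes were 0.15 and 0.23, and each of the 7 genes tested had an adjusted p of 0.999988. The value of Kit rested on single libraries, since it was 1.32 without wild-type clone B9.3 and -0.32 without C6.1.

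Markers of other cells moved with these values. The summed level of 8 endothelial genes was 96.7 CPM in wild-type mesoderm of clone B9.3, 13.7 CPM in C8.1 and 3.76 CPM in C6.1. It was 27.4, 7.90 and 61.9 CPM in P1-CTCF-KO mesoderm and 1.58, 1.88 and 2.29 CPM in P2-CTCF-KO mesoderm, where Emcn had 0 counts and 5 or 6 of the 8 genes had a count. In the 6 wild-type and P1-CTCF-KO mesoderm libraries, Kit followed this sum with Pearson's r of 0.96 and the same order of libraries (Spearman's rho of 1). Pdgfc did so with r of 0.97 and rho of 1, Kitl with r of 0.91 and rho of 0.89, and Pdgfra ran against it with r of -0.67 and rho of -0.83. Without the 2 libraries farthest from the median sum, r was 0.99 for Kit, 0.92 for Pdgfc and 0.94 for Kitl. For Pdgfra it was then -0.20, so its inverse relation rested on those libraries. Libraries of lower endothelial sum had less Kit in both genotypes, and P2-CTCF-KO lay at the low end of the same plot. In the 12 HPC libraries rho with the same endothelial sum was 0.04 for Kit, 0.35 for Kitl, 0.44 for Pdgfra and 0.67 for Pdgfc. For Kit r was 0.74 there, and -0.17 without the 2 farthest libraries. The points share library size and composition and are a description. The 8 mesoderm genes were higher in P2-CTCF-KO, at 56.0, 91.0 and 65.3 CPM against 24.0 to 48.5 CPM in the other mesoderm libraries. Among those others this sum did not run against the endothelial one. It was 44.3 CPM in wild-type C6.1 and 43.8 CPM in B9.3, which held the lowest and the highest endothelial sums among them. The part of endothelial or early mesoderm cells in the Kit and Pdgfra values was not tested.

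**Figure D3:**
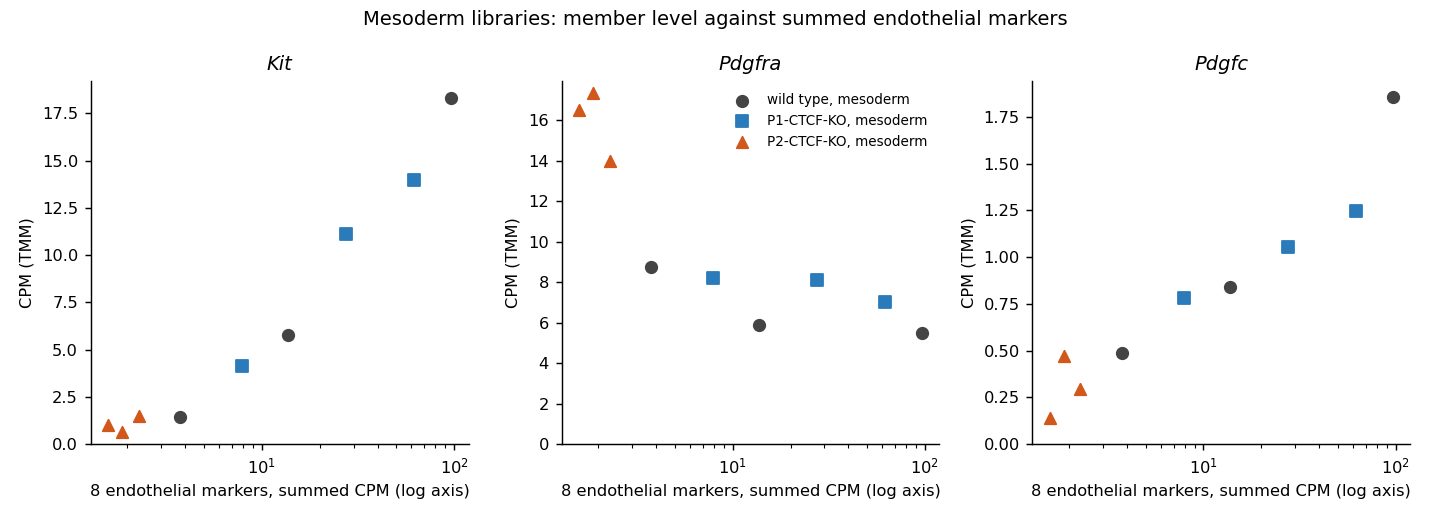
Level of Kit, Pdgfra and Pdgfc (CPM) against the summed level of 8 endothelial genes (CPM, log axis) in the 9 mesoderm libraries. Each point is a library, and shape and colour give the genotype. Kit and Pdgfc climb with the endothelial sum, and the 3 P2-CTCF-KO libraries hold the lowest sums and the highest Pdgfra.

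From mesoderm to HPCs the knockout clones gave called steps that the wild type gave in part. In P2-CTCF-KO clones Kit rose, by 2.25 (log2, SE 0.67, edgeR, adjusted p = 0.0128), from the low mesoderm levels above to 3.10, 4.62, 10.3, 4.23 and 3.48 CPM in HPCs. Every P2-CTCF-KO HPC library was above every P2-CTCF-KO mesoderm library. The step of P2-CTCF-KO was above that of wild type by 3.23 (SE 0.89, unadjusted p = 0.00173), which did not pass across genes (adjusted p = 0.294, 2 genes called, 0.0218% of those tested). The call of Kit in this step was lost without the mesoderm library of clone D2.1 (adjusted p = 0.0595). In P1-CTCF-KO clones, whose HPCs held 2.64, 6.15 and 4.43 CPM, Kit moved by -1.12 without passing (adjusted p = 0.179).

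Pdgfra fell in both knockouts as in wild type. It was down to 0, 0.112 and 0 CPM in P1-CTCF-KO HPCs, a single count, which gave a ratio to mesoderm of 0.00586 (95% counting interval 0.000148 to 0.0328, edgeR adjusted p = 4.75e-06). P2-CTCF-KO HPCs held 4 counts in 5 libraries, at most 0.140 CPM (log2 fold change -7.59, SE 0.56, adjusted p = 5.12e-08). In P1-CTCF-KO clones Kitl fell by 3.45 (SE 1.32, adjusted p = 0.0448) and Pdgfrb fell by 2.67 (SE 0.88, adjusted p = 0.0211). In P2-CTCF-KO clones Pdgfrb moved by -1.32 (adjusted p = 0.171) and Kitl by 0.43 (adjusted p = 0.768). The first P2-CTCF-KO D2.1 library set the last value, since Kitl was 2.37 CPM there and 0.485, 0.0961, 0.106 and 0.217 CPM in the other 4, and without it the step was -1.20. Of the 6 genes tested in both knockouts, 4 were called in P1-CTCF-KO (1 higher) and 3 in P2-CTCF-KO (2 higher), where 32.6% and 28.2% of the 9170 genes tested were called (16.6% and 16.5% higher, 16.1% and 11.7% lower).

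The calls in P1-CTCF-KO rested on single libraries. Leaving out the mesoderm or the HPC library of clone E7.1 left Pdgfra as the only call, and leaving out the HPC library of clone E7.2 left Pdgfra and Pdgfb. With the clone as a block, P1-CTCF-KO kept 4 calls and P2-CTCF-KO 3.

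Pdgfb rose into HPCs in both knockouts, by 1.97 in P1-CTCF-KO (log2, SE 0.65, edgeR, adjusted p = 0.0225) and by 2.11 in P2-CTCF-KO (SE 0.65, adjusted p = 0.0148). It was 5.07, 1.57 and 4.94 CPM in P1-CTCF-KO HPCs, all above the 0.646, 0.741 and 1.51 CPM of mesoderm. P2-CTCF-KO HPCs held 7.17 CPM in the first library of clone D10.1 and 0.961, 2.93, 1.48 and 1.96 CPM in the others, all above the 0.551 to 0.844 CPM of mesoderm. Without the first HPC library of each clone with a second one, the P2-CTCF-KO step was 1.02 and no longer passed (adjusted p = 0.188).

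The HPC level of Pdgfb moved with megakaryocyte genes. Summed over 6 megakaryocyte genes, P2-CTCF-KO clone D10.1 held 120 CPM in its first library and 16.2 CPM in its second, while Pdgfb went from 7.17 to 0.961 CPM between the same libraries. Wild-type HPCs held 78.3, 24.3, 27.9 and 66.6 CPM of these genes, and P1-CTCF-KO HPCs 112, 40.5 and 106 CPM. Over the 12 HPC libraries Pearson's r was 0.91 and Spearman's rho 0.80, and r was 0.86 without the 2 libraries farthest from the median. Counting each clone once (9 libraries), r was 0.89 and rho 0.85. Pdgfb also moved with other marker sums in the 12 libraries. With the endothelial genes r was 0.21 and rho 0.78, and r was 0.83 without the 2 farthest libraries, and with the mesenchyme genes r was 0.45 and rho 0.65. This is a description over libraries that share clones. The part of megakaryocytes, endothelial or mesenchymal cells in the level of Pdgfb was not tested.

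**Figure D4:**
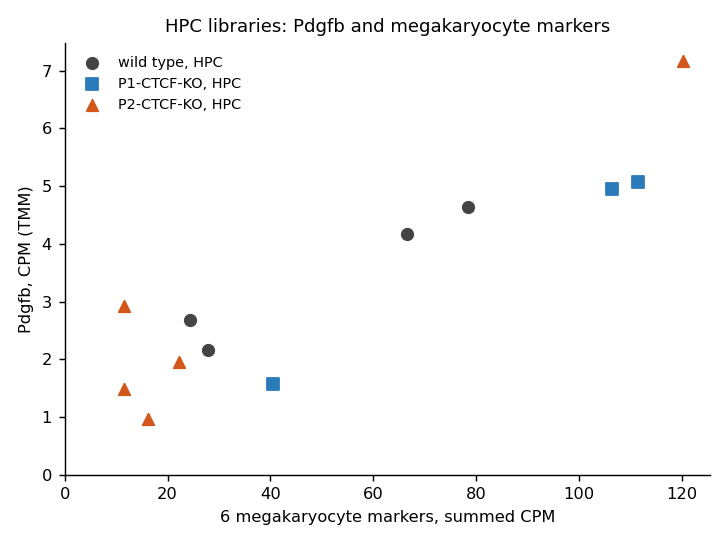
Level of Pdgfb (CPM) against the summed level of 6 megakaryocyte genes (CPM) in the 12 HPC libraries, both axes from 0. Each point is a library, and shape and colour give the genotype. Libraries with 66.6 CPM or more of the markers held 4.16 to 7.17 CPM of Pdgfb and the others 0.961 to 2.93 CPM.

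Between genotypes at the HPC stage the counts allowed little. Only Kit, Pdgfb and Pdgfrb passed the filter, and none was called against a background of 0% in each of the 3 comparisons of 7422 genes by edgeR (260, 145 and 650 genes at an unadjusted p under 0.05). Mean Kit was 4.47 ± 1.82 CPM in wild type (SD, n = 4), 4.41 ± 1.76 CPM in P1-CTCF-KO (SD, n = 3) and 5.15 ± 2.96 CPM in P2-CTCF-KO (SD, n = 5). Kitl was under the filter, with a ratio of counts per library size of 2.08 in P2-CTCF-KO to wild type (95% counting interval 1.15 to 3.96) and 4.35 to P1-CTCF-KO (1.58 to 16.7), where 34 of the 43 P2-CTCF-KO counts came from the first D2.1 library. Pdgfrb in HPCs was highest in 3 libraries with a high sum of mesenchyme genes, at 2.66 CPM in the first B9.3 library, 1.52 CPM in P1-CTCF-KO E9.1 (26.5 CPM of the 8 mesenchyme genes) and 1.54 CPM in the first P2-CTCF-KO D2.1 library (20.7 CPM). The first P2-CTCF-KO D10.1 library went against this, with 27.4 CPM of the mesenchyme genes and 0.582 CPM of Pdgfrb, within the 0.112 to 0.768 CPM of the 9 libraries other than those 3. The part of mesenchymal cells in the level of Pdgfrb was not tested. Mast cells, which carry KIT, left at most 0.128 CPM over 8 marker genes in any library.

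The genes that act with these receptors are given from a list of 89 (6 relatives, 18 adaptors, 41 effectors and 24 inhibitors), of which 82 passed the filter in wild-type cells. From mesoderm to HPCs 22 rose and 16 fell, where 10.8% of all genes tested were called higher and 12.5% lower. Into mesoderm 11 rose and 15 fell, where 10.7% and 13.7% were. The effectors rose more often than they fell in the step to HPCs, 16 against 6 of 40, with a median log2 fold change of 0.89 beside -0.01 over all genes. Jak2, the kinase of cytokine receptors, rose from 1.85 to 13.7 CPM in mean (log2 fold change 2.90, SE 0.23, edgeR, adjusted p = 1.55e-05). Tec, a kinase that KIT activates in blood cells, rose from 0.218 to 28.5 CPM (6.91, SE 0.70). Plcg2 and Pik3cb, a phospholipase and a catalytic subunit of PI3-kinase, rose by 4.13 and 3.14. Plcg1 and Pik3r2, which encode another phospholipase and a regulatory subunit, fell, with changes of -1.40 and -1.79, as did the SRC kinase Yes1 at -1.88.

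Of 22 inhibitors, 3 rose and 8 fell in the step to HPCs. Those that rose were the phosphatase genes Ptprj by 3.66, Inpp5d (SHIP1) by 3.26 and Ptpn6 (SHP1) by 2.46. Among those that fell were Inppl1 (SHIP2), a phosphatase related to SHIP1, with a change of -2.24, the MAP kinase phosphatase Dusp4 with -2.39 and the feedback inhibitor Spry2 with -3.32 from 1.47 to 0.144 CPM, and Spry4 went from 2.40 CPM to 3 counts in all. Spry2 and Spry4 had already fallen into mesoderm, with changes of -1.65 and -2.41, when Cblb, a ubiquitin ligase, and Nf1, a RAS GTPase activator, rose by 1.86 and 1.66.

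Into mesoderm, 4 adaptors rose and 2 fell of 17, and 4 effectors rose and 8 fell of 40. The adaptor Gab2 rose from 0.232 to 8.43 CPM (5.17, SE 0.82, adjusted p = 0.00107), and was 16.6 CPM in HPCs. Stat5b rose from 0.506 to 4.60 CPM (3.16, SE 0.32, adjusted p = 1.33e-04) and Stat5a by 2.37. Plcg2 and Pik3cb, which rose later, fell in this step with changes of -1.91 and -1.38, as did the PI3-kinase subunit Pik3cd with -2.34 and the adaptors Dok2 and Grb7 with -4.50 and -3.31. Flt3l, the ligand of FLT3, was detected in HPCs at 0.399 ± 0.207 CPM (SD, n = 4), with 2 counts in wild-type mesoderm in all (count ratio of 8.102 to mesoderm, adjusted p = 0.0363). None of the 61 listed genes tested in mesoderm or the 62 tested in HPCs was called between genotypes by edgeR. In the step to HPCs, 25 rose and 8 fell of 72 in P1-CTCF-KO, and 26 rose and 10 fell in P2-CTCF-KO. Over all genes tested, 16.6% were called higher and 16.1% lower in P1-CTCF-KO, and 16.5% and 11.7% in P2-CTCF-KO.

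Genes whose level ran most like that of each receptor or ligand were sought over the 21 mesoderm and HPC libraries and 9054 genes, by Pearson's r of log2(CPM + 1). Pdgfra was followed by Sall1 (r of 0.99), Msi1 (0.99) and Adcy3 (0.98). Kit was followed by Calcrl (0.91), an endothelial receptor, Plxnd1 (0.90) and Prkch (0.90), and Kitl by Nid1 (0.94), Arid5b and Fam114a1. Pdgfb was followed by Itpkb (0.94), the platelet collagen receptor gene Itga2 (0.94) and Klf7 (0.94), Pdgfrb by Sertad4 (0.93), Capn6 and Csrp2, and Pdgfc by Camk2d (0.93), Itgav and Abhd17a. The points share clones, and stage differences enter each r. With a pseudocount of 0.1, 10 of these 18 genes were again among the nearest, and with all 23 libraries 7 were.

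Chromatin accessibility was available for wild-type cells as 1 list of ATAC-seq peaks per stage, each called on merged libraries and holding positions without heights. Methods of the study name a derived line with a fluorescent Runx1 reporter for these cells, while the labels give E14-TG2a. The mesoderm list had 76766 peaks and the HPC list 29037. Within the 8 genes and 10 kb upstream, 30 mesoderm peaks and 5 HPC peaks were found, and 2 of the mesoderm peaks, at the starts of Kit and Flt3, overlapped an HPC peak. Over all mesoderm peaks 25.8% did. A mesoderm peak lay within 1 kb of a start site in 7 of the 8 genes (all but Pdgfrb), beside 59.8% of 22219 protein-coding genes, and an HPC peak did so in 2 of the 8 (Kit and Flt3), beside 40.7%.

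Kit had 4 mesoderm peaks, centred 68, 958, 15262 and 33146 bases from the annotated start, and kept the first in HPCs. The second overlapped a CTCF peak of 416B cells, a mouse HPC line. Pdgfra had 3, of which the one centred at -2274 bases from its start is printed above, and none in HPCs, where its counts were near 0. Flt3 had a peak at its start at both stages although at most 1 count was found there in any mesoderm or HPC library. Pdgfb, whose level was highest in HPCs, had 4 mesoderm peaks and no HPC peak.

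The stretch from Pdgfra to Kdr held peaks between the genes as well. The 377 kb between Pdgfra and Kit had 8 mesoderm peaks, 2 HPC peaks and 6 CTCF peaks, and the 276 kb between Kit and Kdr had 6, 4 and 6. Of the mesoderm peaks, 1 in the first interval and 2 in the second overlapped an HPC peak. There is no peak list for the knockout clones here.

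**Figure D5:**
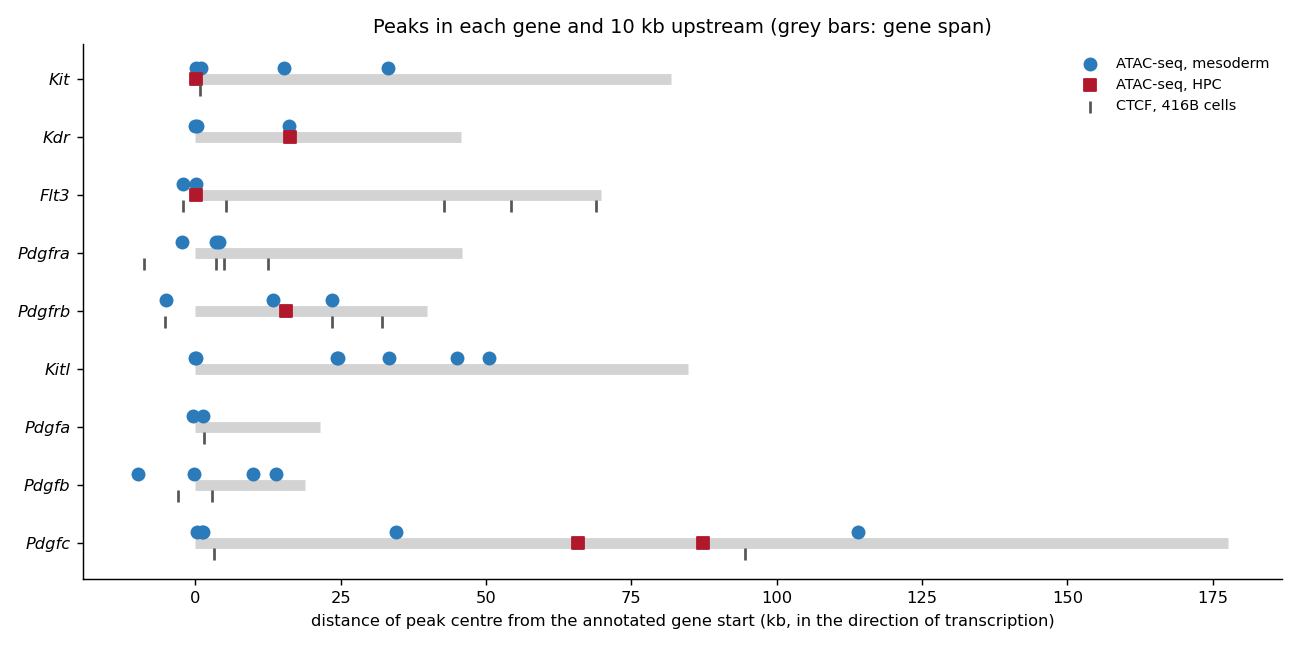
Centres of ATAC-seq peaks in wild-type mesoderm (circles) and HPCs (squares) and of CTCF peaks in 416B cells (ticks) in each of the 8 genes and Kdr with 10 kb upstream, as distance from the annotated start in kb along the direction of transcription. Grey bars show the gene span. Mesoderm peaks stand at or near the start of every gene except Pdgfrb, and HPC peaks at the starts of Kit and Flt3 only.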

How the data were processed

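The authors deposited gene counts of poly(A)-minus RNA-seq, aligned to mm9 with STAR, freed of PCR duplicates with picard and counted with featureCounts over exons and introns. The strand setting and annotation are not given in the sources used here. Since no strand was stated, reads of overlapping genes on the other strand may be included. They also deposited the positions of ATAC-seq and CTCF peaks from MACS2, with no height. The 8 genes and all lists were chosen with earlier results of these data known. The labels call clones biological replicates, and p-values measure the spread between these libraries. The undifferentiated libraries are technical replicates of the same culture, so p-values against them hold no spread between undifferentiated cultures. HPC libraries that share a clone entered the main fits as separate libraries.

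Counts were tested over all genes with edgeR 4.0.16 (R 4.3.3, TMM, filterByExpr with a minimum count of 10, quasi-likelihood test, Benjamini-Hochberg adjustment). A gene was called at an adjusted p under 0.05 and a log2 fold change over 1 in size. Wild-type stages were fitted on 9 libraries, genotypes on the 9 mesoderm or 12 HPC libraries, and steps within knockouts and differences between steps on the 21 libraries of both stages. SE is the log2 fold change divided by the root of F. Libraries of different stages with the same clone name come from the same clone. Their deviations from the group means correlated at -0.06 to 0.18 over 9170 genes. Entries with several loci or over 2500000 bases, and ribosomal RNA (186 entries), stayed in library sizes. Levels per kb use the counted span, introns included, and intervals cover counting error only. DESeq2 1.42.0, RLE scaling, no filter, no fold limit, 1 fit of the 23 libraries, each library left out, the clone as a block and summed libraries of a clone were tried, and leaving out the first HPC library of clones with 2 was chosen after seeing the data. Scripts were tested on simulated data. Listed pathway genes are named by the smallest adjusted p, up to 4 per direction, list and wild-type step, and the text gives part of them. For each gene, the 3 others of highest r are named. The sequence of 1 ATAC-seq peak is not reported here.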

Additional observations from a re-analysis of the deposited data

Results flagged for a closer look

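In 5 of the 15 gene and group pairs with 4 or 5 libraries and a range above 0, a single library lay far from the rest by Dixon's criterion. Its rate of about 1 in 20 groups holds for normal values, which low counts are not, so no excess over chance can be read from the 5. A group with 0 counts in all libraries but 1 meets the criterion by construction, as for Pdgfra and Flt3 below. Of these, 3 concern the first HPC library of P2-CTCF-KO clone D2.1. Kit was 10.3 CPM there, against 4.62 CPM in the nearest of the other P2-CTCF-KO HPC libraries, Kitl was 2.37 CPM against 0.485 CPM, and Pdgfrb was 1.54 CPM against 0.582 CPM. The second HPC library of the same clone held 4.23, 0.106 and 0.211 CPM of these genes. The summed level of 8 endothelial genes was 72.6 CPM in that first library, and the part of endothelial cells in these values was not tested. Pdgfra was 0.515 CPM (6 counts) in the first HPC library of wild-type clone B9.3 and 0 CPM in the other 3 wild-type HPC libraries. Flt3 was 0.0969 CPM in the first HPC library of P2-CTCF-KO clone D10.1 and 0 CPM in the other 4, which is 1 count.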

How the results depend on the processing

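Of 262 recomputed counts of called genes 247 stayed within 1.5 times the reported count, and of 927 recomputed log2 fold changes 851 kept their direction and call. Among the 247 are counts of 0 that stayed 0, as in comparisons between genotypes. Their share is therefore no measure of how firm the counts above 0 were. In wild-type cells the number called from mesoderm to HPCs was 3, and 6 without the filter, 5 without the first HPC library of clones with 2, and 3 to 5 with 1 library left out (5 without the mesoderm library of C6.1 or the first HPC library of B9.3). With 1 library left out it was 2 to 5 into mesoderm and 2 to 4 from undifferentiated cells to HPCs, with 2 in both without the second undifferentiated library, and without the filter 6 were called into mesoderm. For P2-CTCF-KO mesoderm against wild type and against P1-CTCF-KO the number was 0, and 2 each without the filter and with DESeq2, and 0 to 2 with 1 library left out (2 without wild-type C6.1 and without wild-type B9.3, which gave an adjusted p of 0.0497 to Kit and Pdgfra alike). With 1 library left out the step to HPCs gave 1 to 4 in P1-CTCF-KO and 2 to 4 in P2-CTCF-KO, and without the first HPC library of clones with 2 it gave 5 in P1-CTCF-KO. In P2-CTCF-KO the call of Pdgfb was lost without the mesoderm library of D10.1 or E9.1 and that of Pdgfrb gained without the first HPC library of D2.1. In P1-CTCF-KO the adjusted p of Kitl reached 0.164, and its call was lost in 9 of 29 alternatives. The call of Pdgfa into wild-type mesoderm was lost in 7 of 14 alternatives, DESeq2 (adjusted p = 0.0779) and 1 fit of 23 libraries (0.147) among them. Of 25 gene and genotype comparisons whose fold change is not given, 19 turned direction in at least 1 alternative and 0 were called. Counting peaks wider than the median left 12 of 30 in mesoderm and 2 of 5 in HPCs. Over all genes, DESeq2 called 168 and 92 genes in those 2 mesoderm comparisons, no filter 431 and 267, and 1 fit of 23 libraries 18 and 5, in place of 3 and 0. DESeq2 called 35 in the difference of steps in place of 2, and 489 separated P2-CTCF-KO from P1-CTCF-KO HPCs without the first HPC libraries, in place of 0. The cause was not tested.

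Directions that turned were those of Pdgfb into wild-type mesoderm without clone B9.3 (-0.21 to 0.94 over the libraries left out), Kit from wild-type mesoderm to HPCs without it (-1.42 to 0.23), Kit in P1-CTCF-KO against wild-type mesoderm without wild-type C6.1, wild-type C8.1 or P1-CTCF-KO E9.1 (-0.32, -0.086 and -0.25, up to 1.32), Pdgfra from undifferentiated cells to wild-type HPCs without the first HPC library of B9.3 (-4.23 to 3.28, the first against counts of 0), and, in the P2-CTCF-KO step, Kitl without the first HPC library of D2.1 (-1.20 to 0.83) or of all clones with 2 (-1.98), and Pdgfc without the latter (-1.14). With the clone as a replicate block, which pairs libraries of the same clone, Kitl in that step was -0.0023. The block called 2 genes in the wild-type step (Pdgfra and Pdgfrb), 4 in the P1-CTCF-KO step and 3 in the P2-CTCF-KO step, and 1817 genes in all in place of 3007 in the wild-type step. Pdgfa and Pdgfc were under its filter in the wild-type step, and it changed no other call. With 878966 to 1584400 single-locus counts in an HPC library, Flt3, Pdgfra, Pdgfa, Pdgfc and Kitl were under the filter there and were not tested between genotypes.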
